A study of Homo sapiens with 9 samples.

Results

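GPRC5D, CD38, SDC1, SLAMF7, CD46, CD47 and CD48 encode surface proteins of myeloma cells at which antibodies, antibody-drug conjugates or engineered T cells have been directed. The 7 genes were taken by symbol from a table of 58387 genes, and all 7 passed the filter on low counts, which left 16600 genes for testing. The RNA-seq libraries came from MM1S, a human myeloma cell line that was grown in RPMI1640 with 10% FBS. The knockdown group (PHF19_KD, n = 3) carried a lentiviral shRNA against PHF19, the rescued group (KD_Rescued, n = 2) was a PHF19 knockdown that also carried shRNA-resistant PHF19, and the control (shEV, n = 3) carried the empty lentiviral vector, so that every group had been infected with lentivirus. The labels do not say whether the libraries of a group came from separate cultures or whether a line was 1 clone, so the p-values below measure the spread between libraries, which may be technical. For 1 further library, named MMCL11, the labels disagree, since it is a knockdown by title but carries the shRNA-resistant construct by its shRNA field. The names of the PHF19_KD libraries share the stem MMCL2, which MMCL11 does not bear. What these names stand for is not given. MMCL11 is shown apart as 1 library and entered none of the main tests. Alternative fits counted it as PHF19_KD or as KD_Rescued.

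PHF19 assists Polycomb repressive complex 2, which methylates histone H3 at lysine 27 and so keeps genes silent. Malignant plasma cells keep much of the surface of their normal counterparts. GPRC5D is an orphan receptor of the G protein-coupled class, CD38 is an ectoenzyme that consumes NAD, and SDC1 (CD138) is a heparan sulfate proteoglycan used to identify plasma cells. SLAMF7 and CD48 belong to the SLAM family of immune receptors, CD48 being the ligand of CD244. CD46 is a cofactor for the inactivation of complement, and CD47 binds SIRPA on macrophages and restrains phagocytosis. Only RNA was measured, so nothing below describes the amount of protein at the surface, and in bulk RNA fewer cells of a kind and less RNA per cell cannot be told apart.

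The knockdown libraries were shallower, with 10609800 to 12024900 counts, against 23644100 to 23751400 in KD_Rescued and 16974700 to 22739700 in shEV. PHF19 itself averaged 26.9 ± 0.860 CPM (counts scaled to library size with TMM factors) in PHF19_KD (SD, n = 3), 219 ± 1.74 CPM in KD_Rescued (SD, n = 2) and 117 ± 11.8 CPM in shEV (SD, n = 3). Mitochondrially encoded genes took 9.02% to 10.0% of the counts in PHF19_KD, 4.99% to 5.18% in KD_Rescued and 2.84% to 3.32% in shEV. By a chi-square test of counts between libraries of a group, shEV replicate 3 stood apart from the other shEV libraries (8.14 and 9.15 per degree of freedom), while all other pairs lay between 1.37 and 2.25. The KD_Rescued libraries were both in another lane than the rest, and an effect of lane cannot be told apart from one of rescue. The 8 plasma cell markers were all detected, with a summed level of 5581 to 5718 CPM in PHF19_KD, 9158 to 9189 CPM in KD_Rescued and 9919 to 11025 CPM in shEV. The largest share came from the J chain gene IGJ, which averaged 2796 CPM in PHF19_KD, 5671 CPM in KD_Rescued and 6666 CPM in shEV. All markers but XBP1 averaged lower in PHF19_KD than in shEV, PRDM1 by little (212 against 223 CPM). XBP1 averaged 1363 CPM in PHF19_KD and 1240 CPM in shEV. The markers of T and NK cells summed to 1.04 to 1.40 CPM in PHF19_KD, 2.37 to 2.67 CPM in KD_Rescued and 2.02 to 2.62 CPM in shEV, with CD3D and NKG7 at 0 in every library. The 6 monocyte markers summed to 26.5 to 31.2 CPM in PHF19_KD, 9.72 to 10.4 CPM in KD_Rescued and 20.3 to 23.2 CPM in shEV, mostly from CD68, while CD14 never exceeded 3 counts in a library and LYZ never exceeded 1. Erythroid markers, mostly HBD, summed to 12.3 to 14.1 CPM in PHF19_KD, 59.4 to 61.2 CPM in KD_Rescued and 51.3 to 53.5 CPM in shEV. Epithelial markers summed to at most 1.32 CPM in every library of the 3 groups, and fibroblast markers summed to 9.89 to 10.6 CPM in PHF19_KD, 0.957 to 1.54 CPM in KD_Rescued and 2.53 to 2.78 CPM in shEV, with LUM at 0. The part of these shifts in the values of the 7 genes was not tested.

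The sequences upstream of 5 of the genes are shown because Polycomb repressive complex 2 acts mainly at CpG-rich DNA and these genes include the strongest fall (GPRC5D), the strongest rise (CD38) and a trio that moved alike (SDC1, CD46 and CD48). They are from RefSeq on GRCh38.p14, run 5′ to 3′ towards the gene and have the letters of each CpG in capitals. They end before the start of the gene in both RefSeq and GENCODE 29. This cut CD38 to 197 bases and CD48 to 221, so that 2 CpG are printed for CD48.
GPRC5D, chr12:12952171-12952420, minus strand: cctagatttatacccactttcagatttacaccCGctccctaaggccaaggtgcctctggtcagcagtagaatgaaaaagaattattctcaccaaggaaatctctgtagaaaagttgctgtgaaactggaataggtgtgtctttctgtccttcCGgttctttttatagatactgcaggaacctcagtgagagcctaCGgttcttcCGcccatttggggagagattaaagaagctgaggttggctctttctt
CD38, chr4:15778078-15778274, plus strand: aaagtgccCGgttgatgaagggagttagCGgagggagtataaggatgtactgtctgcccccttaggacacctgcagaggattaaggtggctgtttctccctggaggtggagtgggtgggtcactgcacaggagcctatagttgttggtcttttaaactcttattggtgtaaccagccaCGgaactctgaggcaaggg
SDC1, chr2:20225476-20225725, minus strand: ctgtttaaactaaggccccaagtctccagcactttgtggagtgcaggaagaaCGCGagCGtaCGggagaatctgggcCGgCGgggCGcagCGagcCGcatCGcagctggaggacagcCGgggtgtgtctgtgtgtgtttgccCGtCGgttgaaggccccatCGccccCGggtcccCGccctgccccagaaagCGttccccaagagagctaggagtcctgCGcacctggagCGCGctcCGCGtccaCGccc
CD46, chr1:207751788-207752037, plus strand: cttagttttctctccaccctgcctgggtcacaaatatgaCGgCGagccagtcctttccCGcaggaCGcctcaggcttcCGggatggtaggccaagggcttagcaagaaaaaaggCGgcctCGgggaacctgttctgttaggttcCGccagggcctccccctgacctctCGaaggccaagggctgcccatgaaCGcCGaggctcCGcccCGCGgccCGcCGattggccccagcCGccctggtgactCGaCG
CD48, chr1:160711852-160712072, minus strand: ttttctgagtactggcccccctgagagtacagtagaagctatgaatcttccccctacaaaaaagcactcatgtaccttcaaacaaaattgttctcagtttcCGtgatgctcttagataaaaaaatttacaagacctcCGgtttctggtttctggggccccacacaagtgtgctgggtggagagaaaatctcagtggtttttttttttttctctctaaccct
The RefSeq promoter table held 6 of the 7 genes, SLAMF7 not being matched. Where 2 starts were listed for a gene, the one farthest upstream was used. In the 250 bases before the RefSeq start, CD38 had 3 CpG and GPRC5D and CD48 had 4 each. CD46 had 19, SDC1 23 and CD47 39, and the median over 35116 promoters was 11. All 250 bases of CD47 lie within the gene by its GENCODE 29 start, so none of them are printed. Among the genes that rose in the knockdown, CD38 and CD48 had fewer CpG than the median before the RefSeq start, and SDC1 and CD46 had more. Of all promoters, 22.9% had fewer CpG than CD38, 29.3% than CD48, 65.4% than CD46 and 74.2% than SDC1. Sequence beyond these 250 bases was not counted, and no histone methylation was measured. A link between these sequences and PHF19 was not tested. Of 9 motifs searched on both strands of those 250 bases, TATAAA (10.7% of all promoters) was in GPRC5D alone among the 6 genes. The GC box GGGCGG (42.6%) was in GPRC5D, SDC1, CD46 and CD47, and CCAAT (32.0%) was in CD38 and CD46. A loose form of the NF-kB motif, GGG followed after any 5 bases by CC (54.4%), was in CD46 and CD47, where some matches overlap a GC box, and TTTCCCGC, an E2F motif (1.39%), was in CD46. The E-box CACGTG (6.34%), the unfolded protein response element TGACGTGG (0.612%), a second E2F motif TTTGGCGC (0.55%) and the interferon-stimulated response element, read as a pair of GAAA 2 bases apart (3.02%), were in none of the 6. A match describes the letters only and is not a bound site.

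The first comparison asked how the 7 transcripts differed when PHF19 was depleted. GPRC5D fell to 19.8% of the control level, CD38 rose 2.24-fold, SDC1, CD46 and CD48 rose 1.51-fold to 1.75-fold, CD47 fell slightly, and SLAMF7 did not pass the test. In all, 6 of 7 genes were called (edgeR quasi-likelihood, adjusted p below 0.05 by Benjamini-Hochberg), against 69.1% of all tested genes, so that most genes of the table that could be tested were called too. Of the 7 genes 4 rose and 2 fell, against 34.9% and 34.2% of all tested genes. GPRC5D and CD38 changed at least 2-fold, as did 26.4% of all tested genes. The median log2 fold change of the 7 genes was 0.60, and that of all tested genes was 0.03. The sizes of change had a median of 0.70 for the 7 genes and 0.58 for all genes.

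**Figure D1:**
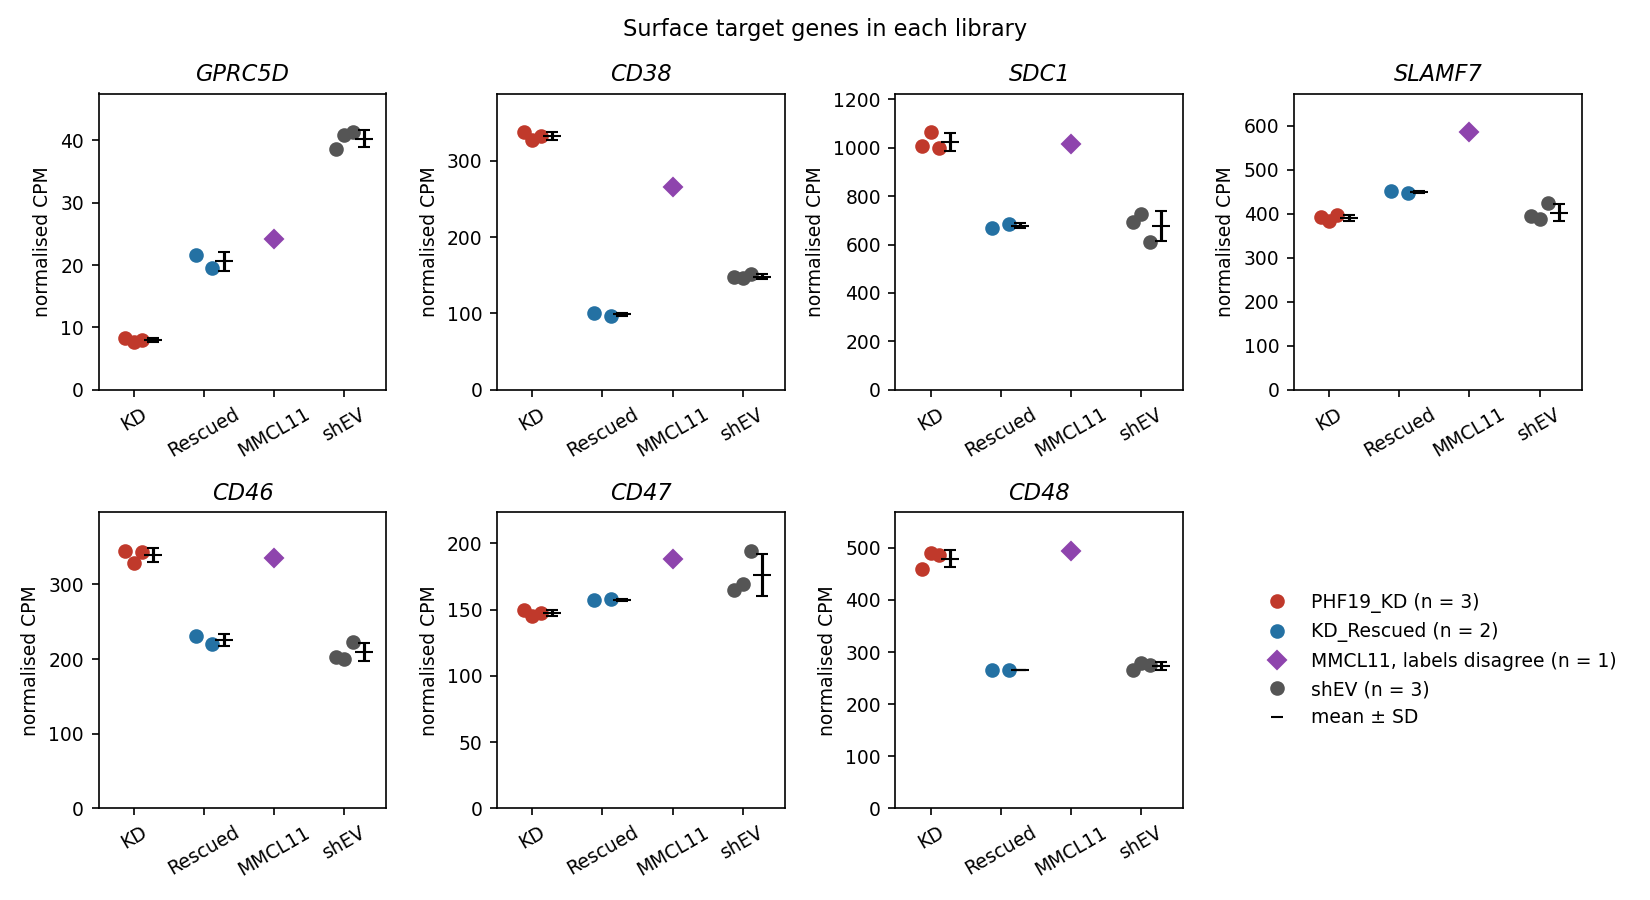
Each panel plots 1 gene on the vertical axis in normalised CPM, with a point per library of PHF19_KD, KD_Rescued, MMCL11 and shEV and bars for the mean ± SD. GPRC5D lay between 7.61 and 8.28 CPM in PHF19_KD and between 38.7 and 41.3 CPM in shEV, and CD38 showed the opposite order.

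GPRC5D had 8.28, 7.61 and 8.07 CPM in the PHF19_KD libraries, against 38.7, 40.9 and 41.3 CPM in the shEV libraries. Every knockdown library was thus far below every control library, although each of them held only 89 to 93 counts of this gene. The log2 fold change was -2.33 ± 0.08 (SE, edgeR quasi-likelihood, adjusted p = 1.84e-10), and 6.47% of the tested genes changed by more. A gene on the opposite strand, GPRC5D-AS1, overlaps GPRC5D in GENCODE 29. Since no strand setting is given, reads from any shared stretch cannot be told apart. The estimated counts of GPRC5D were whole in all 9 libraries.

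CD38 had 337, 327 and 332 CPM in PHF19_KD, against 147, 146 and 151 CPM in shEV. The groups were well apart, and the libraries within each differed by little. The log2 fold change was 1.16 ± 0.04 (SE, same test, adjusted p = 1.68e-10). Its estimated counts were not whole in 7 of 9 libraries.

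SDC1 had 1007, 1064 and 999.8 CPM in PHF19_KD, against 693, 727 and 609 CPM in shEV. The groups did not overlap, and the control libraries spread more widely than the knockdown libraries. The log2 fold change was 0.60 ± 0.06 (SE, same test, adjusted p = 2.28e-06).

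CD46 had 345, 328 and 343 CPM in PHF19_KD, against 203, 201 and 223 CPM in shEV, a log2 fold change of 0.70 ± 0.05 (SE, same test, adjusted p = 9.35e-08). CD48 had 460, 491 and 487 CPM in PHF19_KD, against 266, 280 and 275 CPM in shEV, a log2 fold change of 0.81 ± 0.04 (SE, same test, adjusted p = 5.34e-09). For both genes all knockdown libraries were above all control libraries. The counts of CD48 were not whole in any of the 9 libraries, and an antisense gene, AL121985.1, overlaps it in GENCODE 29. CD46 holds a pseudogene, CDCA4P4, on its own strand, and its counts were whole in all but 2 libraries.

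CD47 had 150, 145 and 147 CPM in PHF19_KD, against 165, 169 and 195 CPM in shEV. The groups did not overlap, but 1 control library was well above the others, and the log2 fold change was only -0.26 ± 0.06 (SE, same test, adjusted p = 0.00210). SLAMF7 had 391, 383 and 396 CPM in PHF19_KD, against 395, 388 and 425 CPM in shEV. The libraries of the groups overlapped, and the log2 fold change of -0.04 ± 0.04 (SE, same test, adjusted p = 0.374) did not pass. Like CD48, SLAMF7 had no whole count in any library.

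With upper-quartile scaling, all genes had a median log2 fold change of 0.19, and 60.6% of the calls were higher, in place of 50.5%. The values of the small changes then moved to -0.10 for CD47 (adjusted p = 0.175) and to 0.11 for SLAMF7 (adjusted p = 0.0575), while the other 5 genes kept their call and direction. The CD47 call was also lost with MMCL11 counted as PHF19_KD (adjusted p = 0.194) or as KD_Rescued (adjusted p = 0.0921). Counting it as KD_Rescued left the libraries compared here unchanged, and the CD47 value was then -0.23. SLAMF7 was called as lower without a filter on low counts (-0.14, adjusted p = 0.0232). Without shEV replicate 3, CD47 kept its call at -0.18 (adjusted p = 0.000215). The libraries of PHF19_KD and shEV did not overlap for 6 of the 7 genes, against 72.0% of all tested genes.

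The second comparison set rescued cells against knockdown cells. GPRC5D rose again, CD38, SDC1, CD46 and CD48 fell, SLAMF7 rose slightly, and CD47 did not pass. Of the 7 genes 6 were called (edgeR quasi-likelihood, adjusted p below 0.05), against 63.4% of all tested genes. These were 2 rises and 4 falls, against 33.9% and 29.5% of all tested genes. The changes of GPRC5D and CD38 were again at least 2-fold, as were those of 23.2% of all tested genes. The 7 genes had a median log2 fold change of -0.59, and all genes one of 0.03. The comparison shares the PHF19_KD libraries with the first, so the values of both are not independent, and the third comparison below shares libraries with each.

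**Figure D2:**
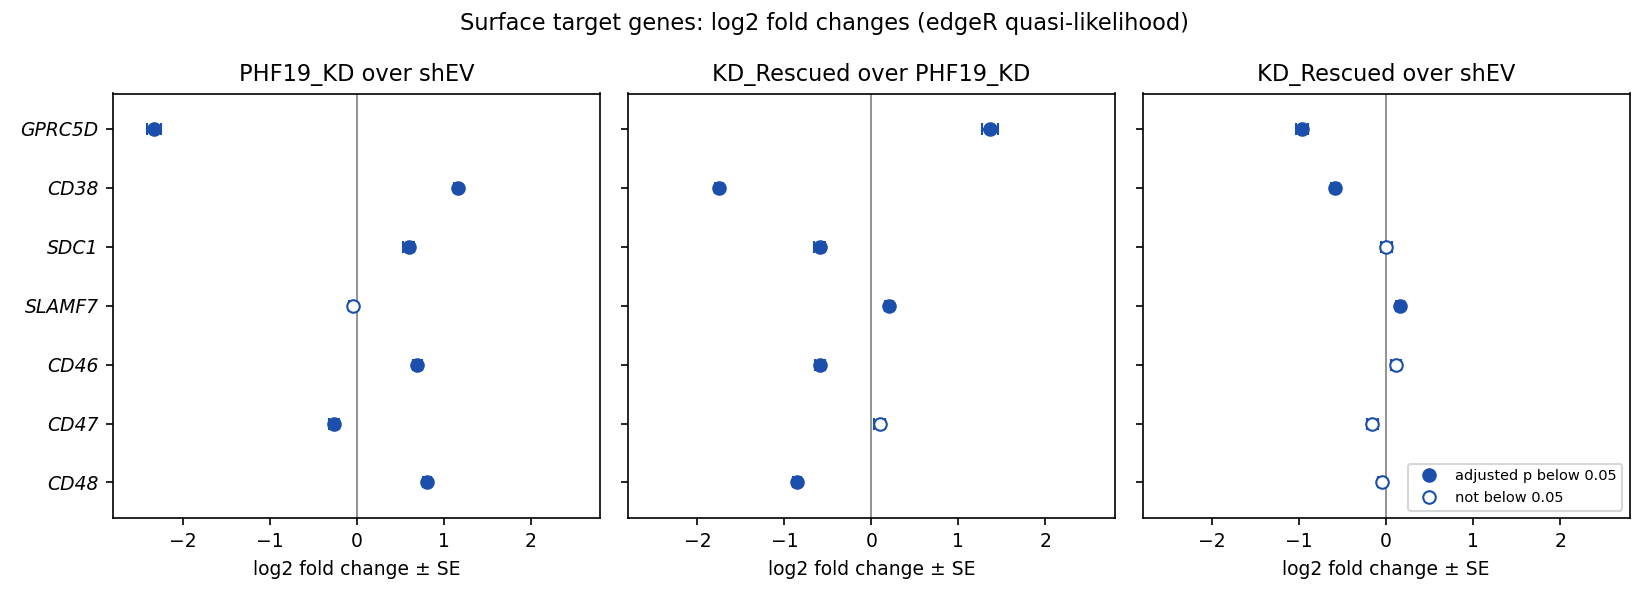
The horizontal axis gives the log2 fold change with its SE for each gene in the 3 comparisons, with the group named first on top of the ratio. Filled points passed at an adjusted p below 0.05, and open points did not, as for SLAMF7 in PHF19_KD over shEV (-0.04) and CD47 in KD_Rescued over PHF19_KD (0.10).

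GPRC5D had 21.6 and 19.5 CPM in the KD_Rescued libraries, against 7.61 to 8.28 CPM in PHF19_KD. Both rescued libraries lay above the knockdown libraries and below the control libraries. The log2 fold change was 1.37 ± 0.09 (SE, edgeR quasi-likelihood, adjusted p = 7.56e-08), and the call was lost with MMCL11 counted as PHF19_KD (0.74, adjusted p = 0.167).

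CD38 had 101 and 97.2 CPM in KD_Rescued, against 327 to 337 CPM in PHF19_KD. Its rescued libraries were the lowest of all libraries, and the log2 fold change was -1.75 ± 0.05 (SE, same test, adjusted p = 2.77e-11). Only 10.4% of the tested genes changed by more in this comparison.

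SDC1 had 670 and 684 CPM in KD_Rescued, against 999.8 to 1064 CPM in PHF19_KD, a log2 fold change of -0.60 ± 0.07 (SE, same test, adjusted p = 8.61e-06). CD46 had 231 and 220 CPM in KD_Rescued, against 328 to 345 CPM in PHF19_KD, a log2 fold change of -0.59 ± 0.06 (SE, same test, adjusted p = 1.63e-06). CD48 had 265 and 266 CPM in KD_Rescued, against 460 to 491 CPM in PHF19_KD, a log2 fold change of -0.85 ± 0.05 (SE, same test, adjusted p = 1.42e-08). For these 3 genes the rescued libraries lay below all knockdown libraries. With MMCL11 counted as KD_Rescued, their calls were lost at log2 fold changes of -0.43 for SDC1 (adjusted p = 0.0611), -0.43 for CD46 (adjusted p = 0.0536) and -0.55 for CD48 (adjusted p = 0.0789).

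SLAMF7 had 451 and 448 CPM in KD_Rescued, against 383 to 396 CPM in PHF19_KD, and the log2 fold change was 0.20 ± 0.05 (SE, same test, adjusted p = 0.00265). CD47 had 157 and 158 CPM in KD_Rescued, against 145 to 150 CPM in PHF19_KD, and the log2 fold change of 0.10 ± 0.07 (SE, same test, adjusted p = 0.221) did not pass. None of the 7 genes had overlapping libraries between KD_Rescued and PHF19_KD, and the same held for 77.2% of all tested genes. Upper-quartile scaling brought the median of all genes to -0.12 and the share of higher calls to 42.1%, in place of 53.4%. It ended the SLAMF7 call (0.05, adjusted p = 0.429) and gave CD47 a log2 fold change of -0.06. The SLAMF7 call was also lost with MMCL11 counted as PHF19_KD (-0.02, adjusted p = 0.908) or as KD_Rescued (0.28, adjusted p = 0.0880). CD47 was called as higher without shEV replicate 3 (0.10, adjusted p = 0.0229). That library is in neither group compared here, and the CD47 value stayed at 0.10. The estimate of spread, however, is shared by all libraries of a fit.

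The third comparison asked how far rescued cells were from the control. GPRC5D and CD38 were both lower in rescued cells, SLAMF7 was slightly higher, and SDC1, CD46, CD47 and CD48 did not pass. Thus 3 of 7 genes were called, against 39.8% of all tested genes (edgeR quasi-likelihood). There was 1 rise and there were 2 falls, against 20.7% and 19.1% of all tested genes, and none of the 7 genes was called at 2-fold or more, against 7.33%. With DESeq2 and its size factors 42.3% of all calls were higher, in place of 52.1%, the median of all genes was -0.03, and none of the 7 genes was called as higher, while CD47 was called as lower. The median log2 fold change was -0.04 for the 7 genes and 0.02 for all genes. The libraries did not overlap for 5 of the 7 genes, against 61.7% of all tested genes.

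GPRC5D averaged 20.6 ± 1.48 CPM in KD_Rescued (SD, n = 2) and 40.3 ± 1.41 CPM in shEV (SD, n = 3), so that rescued cells stood at 51.1% of the control. The log2 fold change was -0.97 ± 0.07 (SE, same test, adjusted p = 2.21e-06). CD38 averaged 98.9 ± 2.36 CPM in KD_Rescued and 148 ± 2.71 CPM in shEV, so that rescued cells stood at 66.7% of the control, with a log2 fold change of -0.59 ± 0.05 (SE, same test, adjusted p = 2.65e-06). The knockdown had moved these genes in opposite directions, and after rescue both were below the control. The GPRC5D call was lost with MMCL11 counted as PHF19_KD (-1.01, adjusted p = 0.120), a group outside this comparison. The CD38 call was lost with MMCL11 counted as KD_Rescued (0.03, adjusted p = 0.966).

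SLAMF7 averaged 450 ± 2.40 CPM in KD_Rescued and 403 ± 19.7 CPM in shEV (log2 fold change 0.16 ± 0.05, SE, same test, adjusted p = 0.0197). This call failed under 9 of 17 alternatives, at adjusted p-values of up to 0.643, among them the omission of either KD_Rescued library (0.140 and 0.124) and of shEV replicate 1 or 2 (0.0560 and 0.0797). SDC1 averaged 677 ± 10.3 CPM in KD_Rescued and 676 ± 60.6 CPM in shEV (0.00 ± 0.07, adjusted p = 0.993, same test), with overlapping libraries. CD48 averaged 265 ± 0.636 CPM in KD_Rescued and 273 ± 7.05 CPM in shEV (-0.04 ± 0.05, adjusted p = 0.479, same test). CD46 averaged 226 ± 7.71 CPM in KD_Rescued and 209 ± 11.99 CPM in shEV (0.11 ± 0.05, adjusted p = 0.127, same test), and CD47 averaged 158 ± 0.790 CPM in KD_Rescued and 176 ± 16.001 CPM in shEV (-0.16 ± 0.06, adjusted p = 0.0682, same test). CD46 was called as higher without shEV replicate 3 (0.16, adjusted p = 0.00405) and with a replicate block (0.14, adjusted p = 0.0457), and CD47 was called as lower under 5 of 17 alternatives, among them the omission of shEV replicate 1 or 2 (-0.21 and -0.20, adjusted p = 0.0312 and 0.0473).

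As a description of the 6 genes called in the knockdown, the log2 change on rescue was set against the log2 change in the knockdown. It amounted to 150% of that change, with opposite sign, for CD38, 105% for CD48, 99.8% for SDC1, 84.2% for CD46, 58.6% for GPRC5D and 37.4% for CD47. PHF19 stood at 188% of the control level in the rescued cells. The profiles of SDC1, CD46 and CD48 over the 8 libraries were close to one another, with a root mean square difference of 0.12 to 0.13 in log2 CPM after each gene was centred on its own mean, and CD47 and SLAMF7 differed by 0.13. GPRC5D differed from the other 6 by 0.90 to 1.62, the widest gap being to CD38.

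For each of the 7 genes the 2 nearest profiles were sought in this way among 12415 other genes with a mean log2 CPM of at least 1 over the 8 libraries. For GPRC5D they were CCL3L3, whose counts were not whole in 8 of 9 libraries, and CYP26A1, at differences of 0.09 and 0.14. CYP26A1, an enzyme that degrades retinoic acid, averaged 29.1 CPM in PHF19_KD, 78.7 CPM in KD_Rescued and 175 CPM in shEV. For CD38 they were TPPP, whose counts were not whole in any library, and CELSR2 (0.07 and 0.09), for SDC1 BST2 and ATP6AP1 (0.04 and 0.05), and for CD46 ATP6V1G1 and SLC35D1 (0.03 and 0.04). BST2, the antiviral membrane protein tetherin, averaged 317 CPM in PHF19_KD, 201 CPM in KD_Rescued and 214 CPM in shEV. For CD48 they were the ribosomal protein gene RPL7A, with counts not whole in 8 of 9 libraries, and TMEM127 (0.03 and 0.04), for CD47 KIAA1429 and TM7SF3 (0.03 each), and for SLAMF7 ALDH9A1 and POGK (0.03 each). The likeness is a description only.

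**Figure D3:**
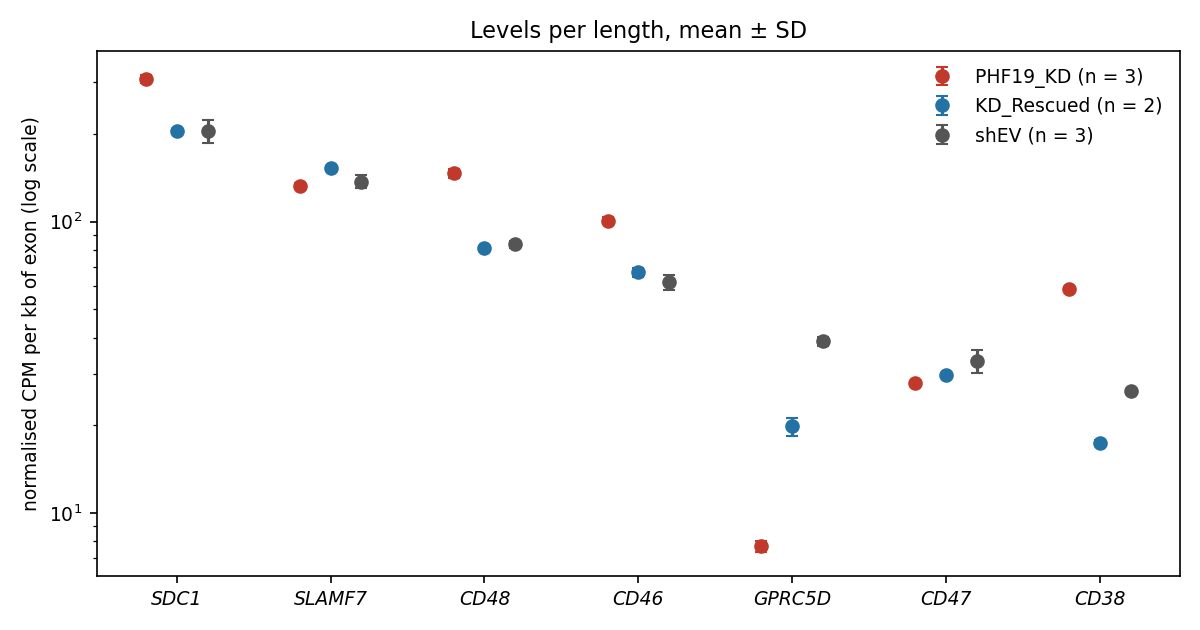
Points give the mean ± SD of normalised CPM per kilobase of annotated exon on a log axis, for PHF19_KD, KD_Rescued and shEV. SDC1 was highest in each group (308 in PHF19_KD, 204 in KD_Rescued and 204 in shEV), and GPRC5D was lowest in PHF19_KD (7.69).

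Levels were compared between genes only per kilobase of exon, with lengths from the coding transcripts of GENCODE 29, which need not be those of the deposited counts. SDC1 was highest in every group, at 308 ± 10.6 CPM per kilobase in PHF19_KD, 204 ± 3.11 in KD_Rescued and 204 ± 18.3 in shEV (SD, n = 3, 2 and 3). SLAMF7, CD48 and CD46 followed. CD48 stood at 146 ± 5.07 CPM per kilobase in PHF19_KD, 81.0 ± 0.194 in KD_Rescued and 83.5 ± 2.15 in shEV, and SLAMF7 at 133 ± 2.24 in PHF19_KD, 153 ± 0.817 in KD_Rescued and 137 ± 6.72 in shEV. In shEV the order of these 2 genes depended on the length used. With the longest transcript in place of all exons, CD48 reached 153 ± 3.93 CPM per kilobase in shEV and SLAMF7 150 ± 7.33, a gap within their spread. CD38, GPRC5D and CD47 were lowest, with CD38 at 58.6 ± 0.926 CPM per kilobase in PHF19_KD, 17.4 ± 0.416 in KD_Rescued and 26.2 ± 0.478 in shEV. GPRC5D stood at 7.69 ± 0.329 CPM per kilobase in PHF19_KD, 19.8 ± 1.43 in KD_Rescued and 38.8 ± 1.36 in shEV, on an annotated length of 1038 bases. On these lengths GPRC5D was above CD38 per kilobase in shEV and below it in PHF19_KD. The place of GPRC5D in shEV and KD_Rescued rests on its 1038 bases, against 5668 for CD38, and a longer length would lower it. CD47 stood at 27.9 ± 0.445 CPM per kilobase in PHF19_KD, 29.8 ± 0.150 in KD_Rescued and 33.4 ± 3.03 in shEV. No 2 of these 3 genes overlapped between their libraries within a group, but that does not cover error in the lengths.

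CD46, CD48 and SLAMF7 lie on chromosome 1, GPRC5D on chromosome 12, CD38 on 4, SDC1 on 2 and CD47 on 3. CD48 and SLAMF7 are neighbours among coding genes in GENCODE 29, and LY9, another SLAM receptor, follows SLAMF7. The ratio of CD48 to SLAMF7 counts within a library, which no scaling between libraries can alter, was 1.18, 1.28 and 1.23 in PHF19_KD, 0.587 and 0.593 in KD_Rescued and 0.673, 0.721 and 0.647 in shEV. The ratio was thus higher in every knockdown library than in any control or rescued library. These counts are not corrected for length, so a ratio of 1 does not mark equal levels. For both genes they were not whole in any of the 9 libraries. The log2 ratio was 0.85 higher in PHF19_KD than in shEV (exact permutation test, two-sided, p = 0.100, the smallest that 3 against 3 libraries allow). This ratio was chosen after the values were seen.

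LY9 rose with CD48, at 191 ± 5.29 CPM in PHF19_KD and 84.9 ± 2.98 CPM in shEV (SD, n = 3 each), a log2 fold change of 1.17 ± 0.05 (SE, edgeR quasi-likelihood, adjusted p = 6.30e-10). Of 9 further SLAM family and adaptor genes 3 were tested, and all 3 rose in the knockdown, against 34.9% of all tested genes, the others being CD244 (1.01 ± 0.26, adjusted p = 0.00449, same test) and SLAMF6 (0.73 ± 0.13, adjusted p = 0.000418, same test). CD244, the receptor of CD48, averaged only 1.96 ± 0.350 CPM in PHF19_KD. All 3 fell on rescue, against 29.5% of all tested genes, by 0.60 to 1.02 on the log2 scale, with adjusted p-values of up to 0.0177. The adaptor gene SH2D1A had 0 counts in all 3 groups, and SH2D1B averaged at most 0.0833 CPM in a group.

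Of 3 tested complement regulators beside CD46, 2 rose and 1 fell in the knockdown, against 34.9% and 34.2% of all tested genes. CD55, which accelerates the decay of complement convertases, averaged 33.8 ± 0.493 CPM in PHF19_KD and 21.0 ± 1.40 CPM in shEV (0.69 ± 0.07, SE, edgeR quasi-likelihood, adjusted p = 2.46e-06). The complement receptor gene CR2 also rose (0.89 ± 0.08, adjusted p = 5.44e-07, same test). CD59, which blocks the membrane attack complex, fell to 398 ± 11.3 CPM in PHF19_KD, against 491 ± 14.5 CPM in shEV (-0.30 ± 0.04, adjusted p = 3.53e-05, same test). In KD_Rescued against shEV none of the 3 tested genes was called, at adjusted p-values of 0.0983 for CD55, 0.0676 for CD59 and 0.381 for CR2.

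Of 8 genes for partners and modifiers of CD47, 6 were tested, of which 1 rose and 3 fell in the knockdown, against 34.9% and 34.2% of all tested genes. LRP1, an endocytic receptor of CALR, rose by 4.79 ± 0.14 on the log2 scale (adjusted p = 3.68e-11, same test). CALR, a chaperone that promotes phagocytosis when exposed at the surface, averaged 681 ± 22.4 CPM in PHF19_KD and 1303 ± 32.3 CPM in shEV (-0.94 ± 0.04, adjusted p = 1.17e-09, same test). The secreted ligand gene THBS1 fell by 2.48 ± 0.29 on the log2 scale (adjusted p = 1.01e-05, same test), at 0.554 ± 0.279 CPM in PHF19_KD and 3.11 ± 0.246 CPM in shEV. SIRPA, the receptor of CD47, changed by 0.10 ± 0.06 (adjusted p = 0.129, same test), and its counts were not whole in any library. QPCT fell (-0.30 ± 0.05, adjusted p = 0.000159, same test), and QPCTL, whose enzyme modifies the SIRPA-binding end of CD47, had a value of 0.00 ± 0.10 (adjusted p = 0.968, same test), with counts not whole in 5 of 9 libraries.

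**Figure D4:**
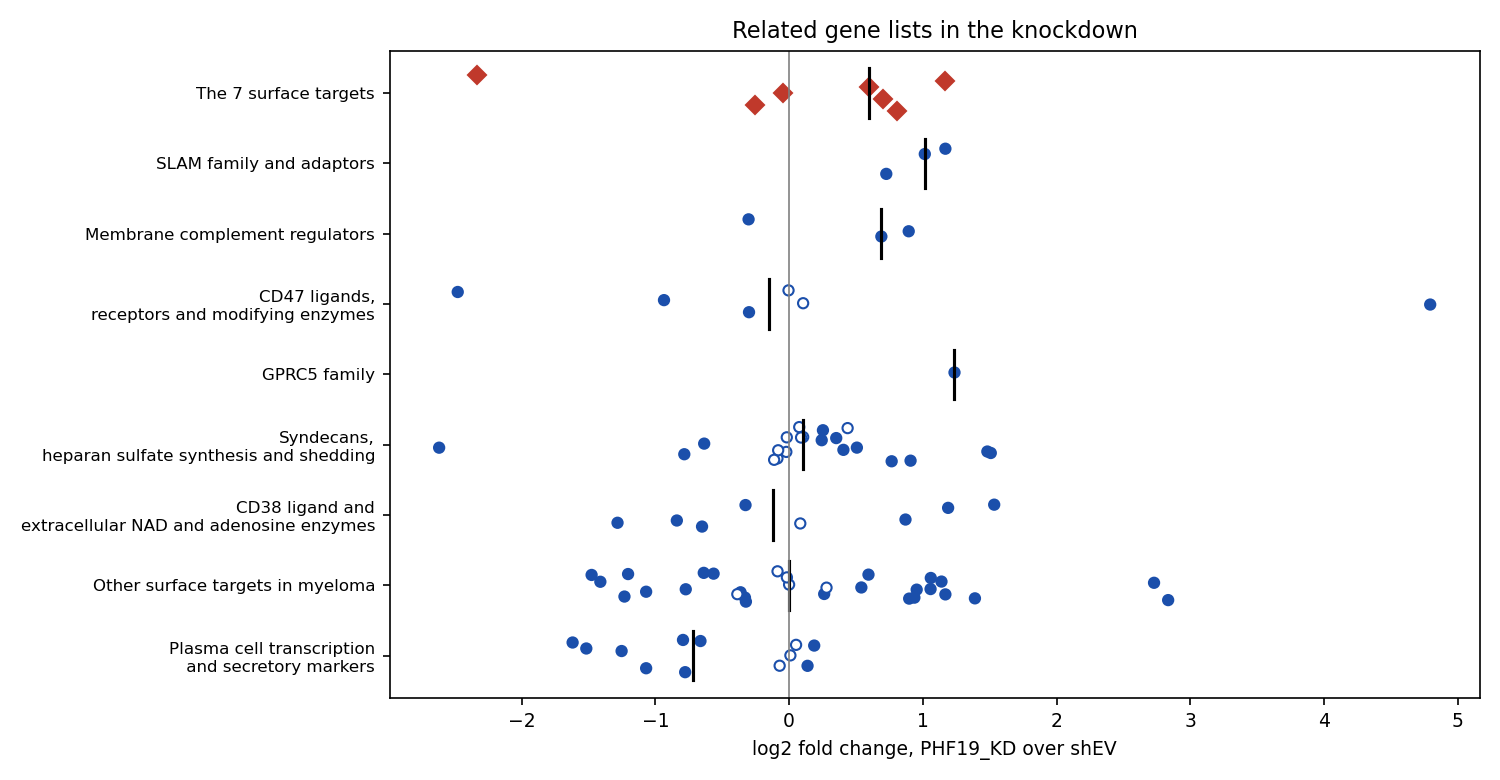
The horizontal axis gives the log2 fold change of PHF19_KD over shEV. Diamonds are the 7 surface targets, circles are the tested genes of 8 related lists (filled where the adjusted p was below 0.05), and black bars are medians, which ran from -0.72 for plasma cell transcription and secretory markers to 1.23 for the single tested gene of the GPRC5 family.

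GPRC5B, the only tested relative of GPRC5D, averaged 1.42 ± 0.187 CPM in PHF19_KD and 0.586 ± 0.319 CPM in shEV (1.23 ± 0.39, SE, edgeR quasi-likelihood, adjusted p = 0.0130). Its call was opposite in direction to that of GPRC5D and rests on a low level, with counts not whole in 5 of 9 libraries. GPRC5A and GPRC5C averaged at most 0.104 CPM in a group and were not tested.

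Among genes for syndecans, heparan sulfate synthesis and shedding, 9 of 21 tested rose and 3 fell in the knockdown, against 34.9% and 34.2% of all tested genes, with a median log2 fold change of 0.10. SDC2, another syndecan, averaged 1.26 ± 0.161 CPM in PHF19_KD and 7.71 ± 0.292 CPM in shEV (-2.62 ± 0.15, SE, edgeR quasi-likelihood, adjusted p = 1.15e-08). SDC4 went the other way, with 15.6 ± 0.795 CPM in PHF19_KD and 8.33 ± 0.590 CPM in shEV (0.91 ± 0.10, adjusted p = 3.97e-06, same test). EXTL2, of the exostosin family, rose (1.48 ± 0.15, adjusted p = 2.13e-06, same test), and the sulfotransferase gene HS2ST1, with counts not whole in 6 of 9 libraries, fell (-0.64 ± 0.07, adjusted p = 3.43e-06, same test).

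Of 8 tested genes around CD38 and extracellular NAD and adenosine, 3 rose and 4 fell in the knockdown, against 34.9% and 34.2% of all tested genes. PECAM1, a ligand of CD38, averaged 39.7 ± 0.874 CPM in PHF19_KD and 13.7 ± 0.350 CPM in shEV (1.53 ± 0.06, SE, edgeR quasi-likelihood, adjusted p = 7.94e-10). Unlike CD38 it remained above the control after rescue (1.01 in KD_Rescued over shEV, adjusted p = 9.19e-07, same test). NT5E (CD73), which makes adenosine, rose (1.19 ± 0.08, adjusted p = 4.60e-08, same test), and ADA, which removes it, fell (-1.28 ± 0.09, adjusted p = 3.81e-07, same test). BST1, the neighbour and paralog of CD38, averaged at most 0.0841 CPM in a group and was not tested.

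Of 29 tested genes for other surface proteins targeted or proposed in myeloma, 13 rose and 11 fell in the knockdown, against 34.9% and 34.2% of all tested genes, the median being 0.00 (log2). The lowest adjusted p-values were those of LY9, described above, and the adhesion molecule gene ICAM1 among the rises (1.14 ± 0.05, SE, edgeR quasi-likelihood, adjusted p = 2.52e-09, counts not whole in 7 of 9 libraries). Among the falls they were IL6R, the interleukin 6 receptor (-1.20 ± 0.04, adjusted p = 8.53e-11, same test), and the transferrin receptor gene TFRC (-1.41 ± 0.05, adjusted p = 1.04e-10, same test).

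Of 12 plasma cell transcription and secretory genes 7 fell and 2 rose in the knockdown, against 34.2% and 34.9% of all tested genes, with a median log2 fold change of -0.72, while SDC1 and CD38, also used as plasma cell markers, were among the rises. The master regulator gene IRF4 averaged 394 ± 8.93 CPM in PHF19_KD, 579 ± 7.04 CPM in KD_Rescued and 675 ± 7.67 CPM in shEV (-0.78 ± 0.04 in PHF19_KD over shEV, SE, edgeR quasi-likelihood, adjusted p = 3.03e-09). The BCMA gene TNFRSF17 averaged 118 ± 2.85 CPM in PHF19_KD, 192 ± 2.70 CPM in KD_Rescued and 248 ± 15.4 CPM in shEV. It fell in the knockdown (-1.07 ± 0.05, adjusted p = 2.89e-09, same test) and, like GPRC5D, stayed below the control after rescue (-0.37, adjusted p = 0.000280, same test). In KD_Rescued over shEV 5 of the 12 genes were called higher and 7 lower, against 20.7% and 19.1% of all tested genes. Those called higher included DERL3, FKBP11 and MZB1 (log2 fold changes 0.95, 0.74 and 0.44), which had fallen in the knockdown. The J chain gene, listed as IGJ, averaged 2796 ± 58.4 CPM in PHF19_KD, 5671 ± 89.7 CPM in KD_Rescued and 6666 ± 552 CPM in shEV (-1.25 ± 0.05, adjusted p = 1.28e-09, same test, counts not whole in 4 of 9 libraries). XBP1, a driver of the secretory program whose counts were not whole in any library, was called slightly higher (0.14, adjusted p = 0.0204, same test). PRDM1, the regulator of plasma cell differentiation, changed by -0.07 ± 0.04 (adjusted p = 0.131, same test).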

How the data were processed

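Per the labels, a TruSeq kit turned 1 µg of RNA into each library. The authors deposited a table of estimated counts per gene, not scaled between libraries, with 1 column for each of 9 libraries. The submitters' processing notes list CASAVA, RSEM and hg19, and the table's name refers to salmon. Annotation and strand setting: not given in the sources used here. In each library 15.6% to 19.4% of the values were not whole within 0.01.

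Estimated counts were rounded and tested with edgeR 4.0.16 in R 4.3.3 (filterByExpr, TMM, robust glmQLFit, glmQLFTest) in a single fit of the 8 libraries of the 3 groups, with p-values adjusted by Benjamini-Hochberg over 16600 genes and called below 0.05. SE is the size of the log2 fold change over the root of F. Distances used log2 CPM with a prior count of 2. Alternatives were DESeq2 1.42.0, limma-voom (limma 3.58.1), other scaling and filters, a replicate block, MMCL11 in either group, and leaving out each library. The scripts were tested on simulated counts, with pass limits that were loosened after a first run narrowly missed them. Replicate pairs differed by more than counting noise (chi-square per degree of freedom 1.37 to 9.15).

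The members and gene lists were chosen with earlier results of these data known. Of lists with up to 12 genes any was named, and of longer lists at most 2 rises and 2 falls with the lowest adjusted p in PHF19_KD over shEV. The symbol JCHAIN was matched to IGJ through RefSeq synonyms. Promoter sequences came from RefSeq, and GENCODE 29, which is on another build than hg19, was used for names, neighbours, lengths and gene starts on GRCh38. Intervals on single libraries cover counting error only.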

Additional observations from a re-analysis of the deposited data

Results flagged for a closer look

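MMCL11, the library with disagreeing labels, was in none of the main comparisons. In it 5 of the 7 genes were higher than in any shEV library, against 41.3% of all tested genes. These values have no replicate, and the intervals are exact Poisson intervals at 95% that cover counting error only. CD38 stood at 266 CPM (256 to 276), below every PHF19_KD library, against 146 to 151 CPM in shEV. SDC1 stood at 1014 CPM (994 to 1033), within the range of PHF19_KD, against 609 to 727 CPM in shEV. CD46 stood at 335 CPM (324 to 347), within the range of PHF19_KD, against 201 to 223 CPM in shEV. CD48 stood at 495 CPM (481 to 508), just above the highest PHF19_KD library at 491 CPM, against 266 to 280 CPM in shEV. SLAMF7 stood at 585 CPM (570 to 600), above all 8 other libraries, against 388 to 425 CPM in shEV.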

How the results depend on the processing

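Of 357 values of the 7 genes under 17 alternatives in 3 comparisons, 313 kept their direction and their side of the threshold, 19 lost a call without a change of sign, 9 gained one and 16 changed sign, 2 of which lost a call too. Of 21 pairs of a gene and a comparison, 6 kept both under every alternative, namely GPRC5D, CD38, SDC1, CD46 and CD48 in PHF19_KD over shEV and CD38 in KD_Rescued over PHF19_KD. In PHF19_KD over shEV, SLAMF7 turned to 0.11 with upper-quartile scaling and 0.13 with MMCL11 counted as PHF19_KD. In KD_Rescued over PHF19_KD, CD47 turned to -0.0582 with upper-quartile scaling and -0.0592 with MMCL11 counted as PHF19_KD, and SLAMF7 to -0.0226 with MMCL11 counted as PHF19_KD. In KD_Rescued over shEV, with MMCL11 counted as KD_Rescued, CD38 turned to 0.0271 and CD48 to 0.29. SDC1, whose value was 0.00 there, turned to -0.0456 with DESeq2, -0.0501 without a filter, -0.0259 without mitochondrially encoded genes, -0.0404 with a replicate block, -0.0441 with MMCL11 counted as PHF19_KD and -0.0234 with only the 2 groups compared, and lay between -0.0703 and 0.0499 when 1 library was left out.

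In KD_Rescued over shEV, 6599 genes were called, against 4047 with MMCL11 counted as PHF19_KD, 2464 with it counted as KD_Rescued and 4048 to 7539 when 1 library was left out (4253 without KD_Rescued replicate 1 and 4048 without replicate 2). Of the 7 genes, 1 was called in this comparison with MMCL11 counted in either group, in place of 3. Counting MMCL11 as PHF19_KD left the libraries of this comparison unchanged. The log2 fold changes were then -1.01 in place of -0.97 for GPRC5D and -0.63 in place of -0.59 for CD38. For SLAMF7 the value was 0.11 in place of 0.16. All libraries of a fit share the filter, the scaling and the estimate of spread. A call can thus change through libraries outside the groups compared. In KD_Rescued over PHF19_KD, 6207 genes were called with MMCL11 counted as KD_Rescued, in place of 10526, and 2 of the 7 genes in place of 6. The cause was not tested.

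The labels do not say that a replicate number marks a shared culture or day, so the numbers were not taken to pair libraries. Deviations of same-numbered libraries from their group means had r from -0.00999 to 0.0256 (7 pairs). These pairs share libraries and carry counting noise, so this check cannot decide whether the libraries were paired. A fit with the number as a replicate block called 11537, 10341 and 6387 genes in the 3 comparisons and 6, 6 and 4 of the 7 genes. Depth limits GPRC5D most, at 89 to 93 counts in the knockdown libraries.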

Other observations

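In MMCL11 the remaining genes were GPRC5D at 24.2 CPM (exact Poisson interval at 95%, counting error only, 21.2 to 27.4), between the PHF19_KD and the shEV libraries, and CD47 at 188 CPM (180 to 197), within the range of shEV. PHF19 stood at 63.6 CPM in that library, 54.5% of the shEV mean. The ratio of CD48 to SLAMF7 counts was 0.845 there, which lies between PHF19_KD and shEV.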
